A study of Mus musculus with 10 samples.

Results

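The lysosome genes described here are the 99 genes of the deposited table, out of 55401, that its KEGG column assigns to the lysosome pathway and that were read at a mean of at least 0.5 FPKM (a read level corrected for transcript length and depth) over all 10 libraries. Of 124 genes with that assignment, 10 were set aside because the column also gives them to oxidative phosphorylation; these are subunits of the vacuolar proton pump. A further 14 lay below the level minimum, and Cd68 was left out by rule. The samples were livers, 5 of the genotype NIKflox (NIKF/F in the series' design text) and 5 of the genotype NIKhKO, and both groups had received the Lieber-DeCarli liquid diet with 5% ethanol during 4 weeks. Map3k14 is the gene of NIK, a kinase of the noncanonical NF-kB pathway. The labels used here give no age or sex and no Cre driver, and hKO is not spelled out, although the title of the series names hepatic NIK. Litters and cages are not given either, so the independence of the samples could not be checked. The p-values set the genotype difference against the spread within these 2 groups of samples only.

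Lysosomes are acidic compartments in which hydrolases break down proteins, glycans, lipids and nucleic acids that arrive by endocytosis or autophagy. Most soluble hydrolases receive a mannose phosphate tag in the Golgi and are carried to the lysosome by receptors in clathrin-coated vesicles with adaptor proteins. Many lysosome genes share a palindromic E-box in their promoters to which TFEB and its relatives bind, and mTORC1 on the lysosome surface keeps TFEB out of the nucleus. In the liver, hepatocyte lysosomes take part in the turnover of lipid droplets and mitochondria, and Kupffer cells, the resident macrophages, are rich in lysosomes.

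Total estimated counts ran from 47161869 to 65052525 per library, and the lowest count of a lysosome gene in any library was 12. Map3k14 read 0.483 to 0.899 FPKM in the NIKflox and 0.347 to 0.443 FPKM in the NIKhKO libraries. The hepatocyte markers Alb and Ttr were among the abundant transcripts of every library, with Alb at 24796 FPKM or more. Heart muscle transcripts were present in NIKflox 2 and 4, where 14 marker genes summed to 11.03 and 47.8 FPKM; the remaining 8 libraries held 0.632 to 1.56 FPKM. Adipocyte markers (7 genes) summed to 29.4 FPKM in NIKflox 2 and to at most 4.77 FPKM elsewhere. In bulk liver RNA, fewer cells of a type and less RNA per cell cannot be told apart.

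The lysosome genes spanned a wide range of levels. Of the 99, 6 had a mean of 100 FPKM or more, 35 lay between 10 and 100 FPKM, 53 between 1 and 10 FPKM and 5 between 0.5 and 1 FPKM. Nearest to the minimum, Abcb9 stood inside at 0.589 FPKM and Ap3m2 outside at 0.404 FPKM. Psap, the precursor of the saposins that help sphingolipid hydrolases, was highest at 221 FPKM, followed by Lamp1, the main glycoprotein of the lysosomal membrane, at 202 FPKM. Next came the proteases Ctsz, Ctsb and Ctsd at 151, 143 and 129 FPKM. These 5 genes held 42.2% of the summed mean FPKM of the lysosome genes, and the first 10 held 58.9%. By role, the 13 proteases had the highest median level, 23.2 FPKM, and the 21 membrane proteins and transporters the lowest, 5.04 FPKM.

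**Figure D1:**
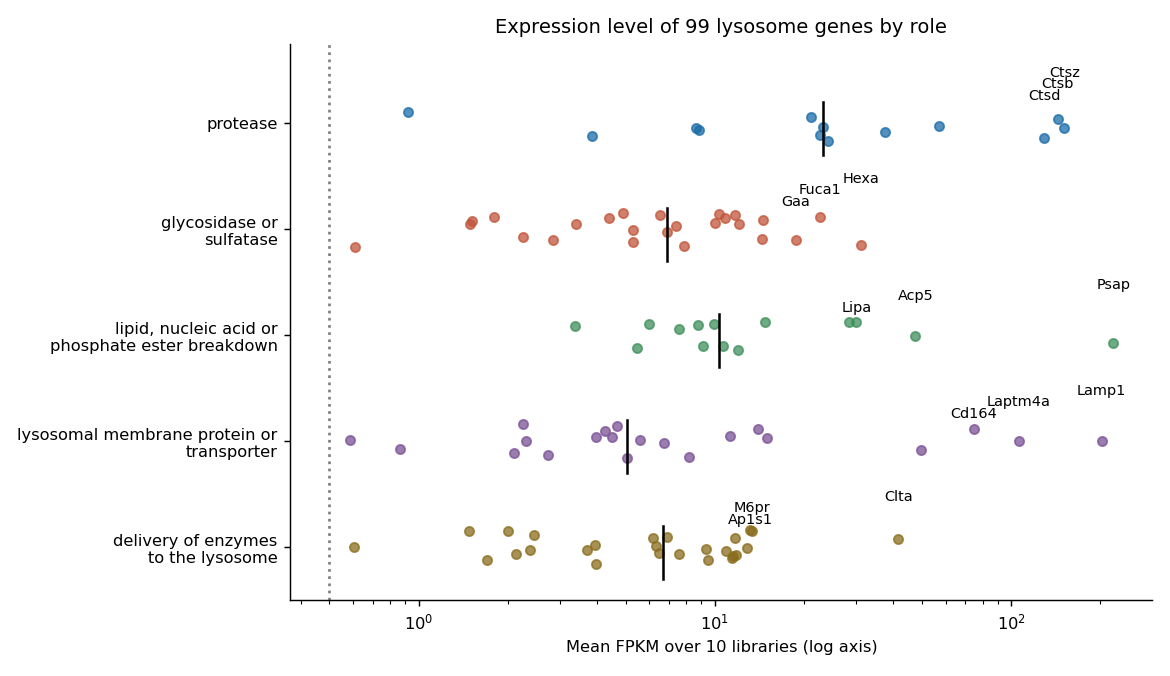
Mean FPKM over the 10 libraries (log axis) of each of the 99 lysosome genes, 1 point per gene, in 5 rows by role; the black bar is the median of the row, the dotted line the minimum of 0.5 FPKM, and the 3 highest genes of each role are named. The proteases have the highest median, 23.2 FPKM, and Psap the highest single level, 221 FPKM.

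The promoters of the lysosome genes were searched for the palindromic E-box. RefSeq promoter windows on GRCm38.p6, from 250 bases before to 50 bases after the start of transcription, were matched by symbol to 80 of the 99 genes. The letters TCACGTGA, which read the same on both strands, stood in a window of 9 of these 80 genes (11.2%), against 200 of 8817 matched genes tested (2.27%) and 304 of all 27025 genes of the promoter table (1.12%). The core of that motif, CACGTG, which also counts every TCACGTGA, stood in 22 of 80 (27.5%), against 1054 of 8817 (11.95%) and 2187 of 27025 (8.09%). The longer form with G before and C after TCACGTGA was found for Cln3 and Igf2r alone among the lysosome genes, 2 of 80 (2.50%), against 72 of 8817 (0.817%) and 100 of 27025 (0.370%). A match is a description of letters and not a binding site. One window per gene is shown to let the surroundings of the motif be compared, 5′ to 3′ on the gene's strand, with TCACGTGA in capitals; Ctsa, Gla and Igf2r have another match that is not shown.
Cd164, chr10:41519401-41519430, plus strand: cgccgggctgcTCACGTGAccggcgcgcgc
Cln3, chr7:126583340-126583369, minus strand: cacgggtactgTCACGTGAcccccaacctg
Ctsa, chr2:164833749-164833778, plus strand: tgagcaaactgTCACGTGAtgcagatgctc
Ctsd, chr7:142387908-142387937, minus strand: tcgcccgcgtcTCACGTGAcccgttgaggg
Gla, chrX:134601182-134601211, minus strand: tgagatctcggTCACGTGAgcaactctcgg
Gnptg, chr17:25240120-25240149, minus strand: ccggctgtcacTCACGTGAccgtgagaccc
Igf2r, chr17:12769696-12769725, minus strand: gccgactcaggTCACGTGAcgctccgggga
Mcoln1, chr8:3500462-3500491, plus strand: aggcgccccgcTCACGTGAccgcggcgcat
Sumf1, chr6:108185577-108185606, minus strand: agcaccacaggTCACGTGAtctccatgggt
These 9 genes come from all roles except the breakdown of lipids, nucleic acids and phosphate esters. Between the genotypes, 6 had a positive and 3 a negative log2 fold change, with a median of 0.06. Of all lysosome genes 54.5% were positive, and of all genes tested 48.2%. In edgeR's test 0 of the 9 reached an unadjusted p below 0.05, against 6.06% of the lysosome genes and 10% of all genes tested. So few genes cannot be told apart from these shares.

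No lysosome gene was called different between NIKhKO and NIKflox livers. The test was edgeR's quasi-likelihood test over 12731 genes with a Benjamini-Hochberg adjusted p below 0.05 for a call, and it called 0.0236% of all genes. At an unadjusted p below 0.05 there were 6 of 99 (6.06%), against 10% of all genes tested. DESeq2 called 3, Ctsb and Ap1s1 higher and Abca2 lower in NIKhKO, against 1.66% of the genes to which it gave an adjusted p, and limma on log2(FPKM + 1) called 0. The edgeR log2 fold changes, NIKhKO minus NIKflox, ran from −0.55 for Abca2 to 0.37 for Ap1s1 with a median of 0.01, and the median over all genes tested was −0.01. Positive values were held by 54 of the lysosome genes (54.5%) and by 48.2% of all genes. On the authors' FPKM scale, with limma on log2(FPKM + 1), the median of all genes was −0.05 and 36 lysosome genes (36.4%) were positive, against 35.9% of all genes. Separate FPKM ranges in the 2 groups were seen for 1 lysosome gene, Dnase2a, against 2.20% of all genes.

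The data bounded most of these differences. The 95% interval of the edgeR log2 fold change lay within a 1.5-fold change in either direction for 81 of the 99 lysosome genes (81.8%), against 56.5% of all genes tested, whose median level was lower (3.25 against 8.17 FPKM). By role, this held for 11 of 13 proteases, 21 of 25 glycosidases and sulfatases, 13 of 14 genes for breakdown of lipids, nucleic acids and phosphate esters, 15 of 21 membrane proteins and transporters, and 21 of 26 genes for delivery of enzymes. Among the abundant genes the interval ran from −0.26 to 0.12 for Psap, from −0.11 to 0.29 for Lamp1 and from −0.22 to 0.20 for Ctsd. The widest intervals belonged to Ap4b1 (−1.66 to 0.85) and Ctsk (−1.37 to 1.01). Ap4b1 read 0.129 FPKM in NIKhKO 4 and 3.31 to 4.45 FPKM in the other NIKhKO libraries, and Ctsk was a low gene at 0.116 to 1.604 FPKM over all libraries.

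**Figure D2:**
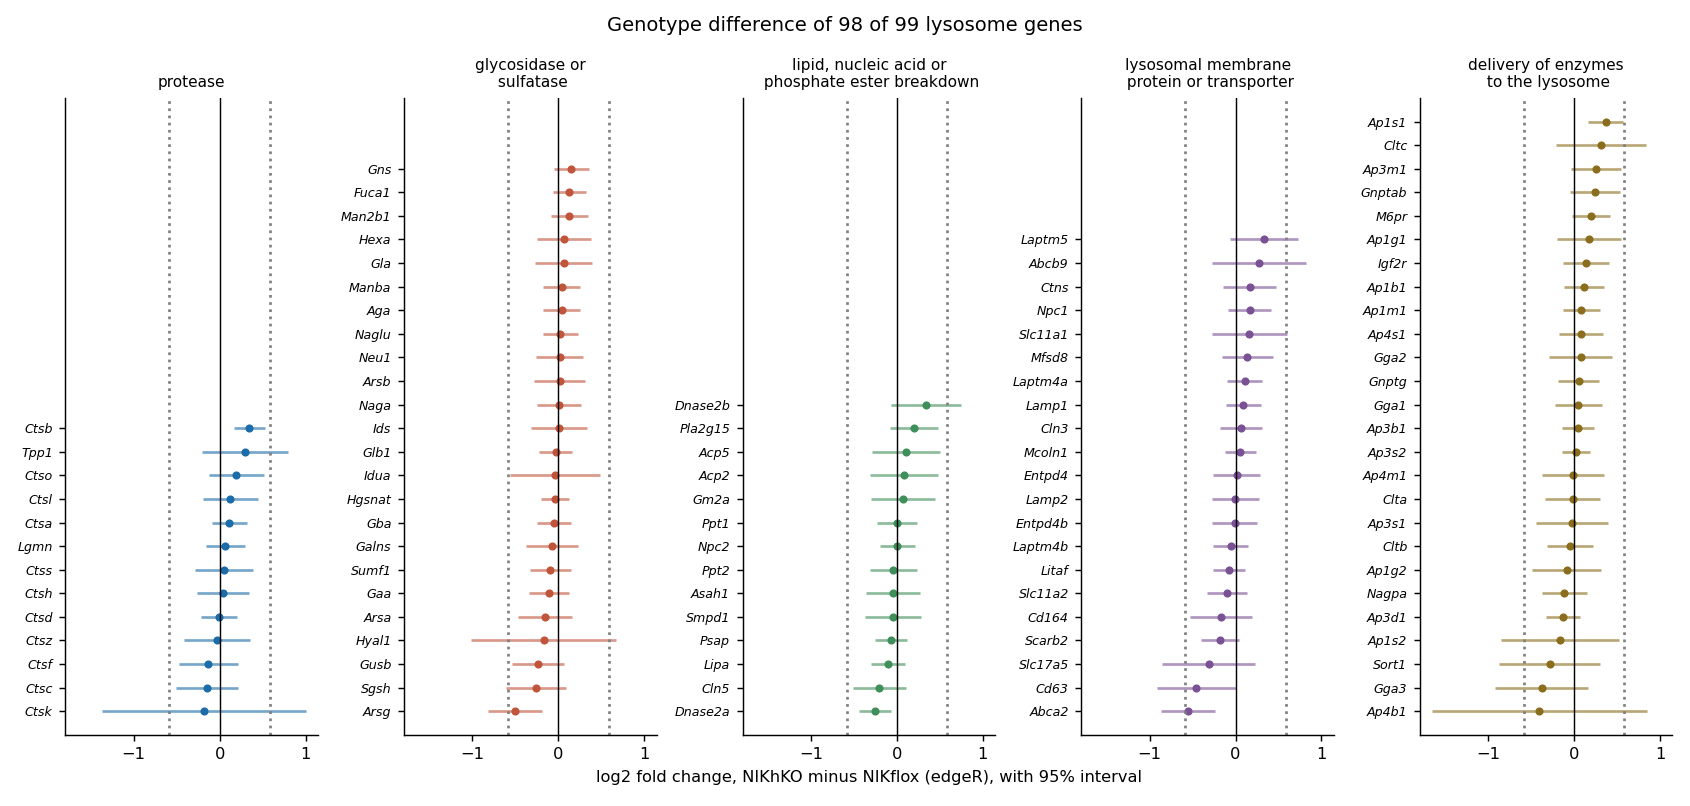
edgeR log2 fold change, NIKhKO minus NIKflox, of 98 of the 99 lysosome genes, each with its 95% interval, in 5 panels by role; dotted lines mark a 1.5-fold change in either direction. The values run from −0.55 for Abca2 to 0.37 for Ap1s1, and 81 intervals lie between the dotted lines.

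Among the 13 proteases, the log2 fold change was positive for 8 and negative for 5 (median 0.05), and 0 were called. Ctsb (ENSMUSG00000021939, chromosome 14, 63122462 to 63145923, plus strand) encodes cathepsin B, a cysteine protease, and had the smallest p of all lysosome genes. It read 129, 117, 129, 141 and 131 FPKM in NIKflox 1 to 5 and 167, 172, 153, 134 and 159 FPKM in NIKhKO 1 to 5. All NIKhKO libraries but NIKhKO 4 lay above every NIKflox library, and NIKhKO 4 lay below NIKflox 4 alone. The mean was 1.22 times the NIKflox mean on the FPKM scale, and edgeR gave a log2 fold change of 0.34 ± 0.08 (SE; adjusted p = 0.23), with an interval from 0.16 to 0.53. DESeq2 gave it an adjusted p of 0.0097. Ctsz, a carboxypeptidase, read 156 ± 42.9 FPKM in the NIKflox group and 146 ± 31.4 FPKM in the NIKhKO group (SD, n = 5 each). Ctsd, the main aspartic protease, read 132 ± 20.5 and 126 ± 8.57 FPKM. The edgeR interval ran from −0.41 to 0.36 for Ctsz and from −0.22 to 0.20 for Ctsd. The interval of Ctsz holds the Ctsb value of 0.34, so a difference between Ctsz and Ctsb is not shown. Ctso, a cysteine cathepsin, had the next smallest p of the role, with 8.19 ± 1.51 and 9.01 ± 0.693 FPKM (adjusted p = 0.73).

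Among the 25 glycosidases, sulfatases and enzymes that serve them, the log2 fold change was positive for 13 and negative for 12 (median 0.01), and 0 were called. Arsg (ENSMUSG00000020604, chromosome 11, 109473374 to 109573330, plus strand) encodes arylsulfatase G, a sulfatase of heparan sulfate breakdown. It read 4.10, 4.35, 3.48, 3.83 and 4.52 FPKM in NIKflox and 2.68, 2.37, 2.36, 3.56 and 2.68 FPKM in NIKhKO. The ranges touched only through NIKhKO 4, which lay just above NIKflox 3. The NIKhKO mean was 0.673 of the NIKflox mean, with a log2 fold change in edgeR of −0.51 ± 0.14 (SE; adjusted p = 0.27) and a DESeq2 adjusted p of 0.071. Hexa, a hexosaminidase subunit, was the highest of the role, at 31.3 ± 7.89 and 31.2 ± 4.33 FPKM (SD, n = 5 each). Fuca1, which removes fucose, read 22.1 ± 2.15 and 23.1 ± 2.41 FPKM, and Gaa, the acid glucosidase of glycogen, 19.9 ± 3.93 and 17.6 ± 1.36 FPKM.

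Of the 14 genes for the breakdown of lipids, nucleic acids and phosphate esters, the log2 fold change was positive for 7 and negative for 7 (median −0.02), and 0 were called. Dnase2a (ENSMUSG00000003812, chromosome 8, 84908560 to 84914521, plus strand) encodes the acid DNase that degrades DNA of engulfed cells. It read 3.35, 3.93, 3.61, 4.41 and 3.44 FPKM in NIKflox and 3.10, 3.11, 2.74, 3.03 and 3.01 FPKM in NIKhKO, so that every NIKhKO library lay below every NIKflox library. The gap between the groups was narrow, from 3.11 to 3.35 FPKM. The log2 fold change in edgeR was −0.26 ± 0.08 (SE; adjusted p = 0.35), and DESeq2 gave an adjusted p of 0.18. Its relative Dnase2b pointed the other way, at 6.87 ± 1.87 and 8.27 ± 0.955 FPKM (SD, n = 5 each; edgeR adjusted p = 0.60). Psap read 231 ± 30.4 and 211 ± 16.1 FPKM, and Acp5, the tartrate-resistant acid phosphatase, 46.9 ± 7.14 and 48.1 ± 10.6 FPKM. Lipa, the acid lipase that frees fatty acids and cholesterol from triglycerides and cholesteryl esters in the lysosome, read 31.8 ± 1.56 and 28.3 ± 2.35 FPKM, with a log2 fold change in edgeR of −0.10 ± 0.09 (SE; adjusted p = 0.77) and an interval from −0.30 to 0.09.

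Of the 21 membrane proteins and transporters, the log2 fold change was positive for 11 and negative for 10 (median 0.01), and 0 were called. Abca2 (ENSMUSG00000026944, chromosome 2, 25428703 to 25448540, plus strand), an ATP-driven transporter of late endosomes and lysosomes linked to sterol and sphingolipid handling, was the lysosome gene with the most negative value. It read 8.89, 6.35, 7.78, 8.94 and 8.90 FPKM in NIKflox and 4.62, 5.62, 5.05, 6.99 and 4.41 FPKM in NIKhKO. NIKhKO 4 lay above NIKflox 2, and otherwise the groups were apart. The NIKhKO mean was 0.653 of the NIKflox mean, with a log2 fold change in edgeR of −0.55 ± 0.14 (SE; adjusted p = 0.26) and a DESeq2 adjusted p of 0.041. Cd63, a tetraspanin of late endosomes, read 2.28, 3.31, 3.05, 2.02 and 2.57 FPKM in NIKflox and 1.77, 2.72, 1.38, 1.304 and 2.11 FPKM in NIKhKO. Its ranges overlapped through NIKhKO 2 and 5, and its log2 fold change was −0.46 (SE 0.21; adjusted p = 0.50). Lamp1 and Laptm4a, the most abundant members of the role, were close to level between the genotypes. Lamp1 read 201 ± 11.2 and 204 ± 14.9 FPKM and Laptm4a, a small transmembrane protein, 105 ± 9.99 and 108 ± 2.91 FPKM (SD, n = 5 each). Cd164, a sialomucin, read 80.9 ± 11.9 and 68.7 ± 12.6 FPKM (edgeR adjusted p = 0.80). Entpd4 and Entpd4b are close copies of each other; reads may have been divided between them in the authors' counts, and their separate levels are uncertain.

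Of the 26 genes for delivery of enzymes to the lysosome, the log2 fold change was positive for 15 and negative for 11 (median 0.04), and 0 were called. Ap1s1 (ENSMUSG00000004849, chromosome 5, 137034993 to 137046135, minus strand), the small subunit of the clathrin adaptor AP-1 that carries receptors between the Golgi and endosomes, had the most positive value of all lysosome genes. It read 10.9, 10.7, 12.1, 13.7 and 11.3 FPKM in NIKflox and 16.4, 16.5, 12.9, 12.2 and 14.4 FPKM in NIKhKO. NIKhKO 1, 2 and 5 lay above all NIKflox libraries, and NIKhKO 3 and 4 lay below NIKflox 4. The log2 fold change in edgeR was 0.37 ± 0.09 (SE; adjusted p = 0.25), and DESeq2 gave an adjusted p of 0.036. The 6 AP-1 subunit genes together had 4 positive values and a median of 0.10.

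M6pr and Gnptab, of the mannose phosphate tag, and Ap3m1, of a further adaptor, were among the 10 with the smallest p, without passing. Their unadjusted p in edgeR's test was 0.080, 0.089 and 0.079. Other genes of the tag had log2 fold changes of 0.05 (Gnptg), 0.13 (Igf2r) and −0.11 (Nagpa). Their unadjusted p in the same test was 0.65, 0.29 and 0.36. M6pr, the small receptor for the tag, read 11.5, 12.3, 11.005, 15.1 and 13.7 FPKM in NIKflox and 14.9, 15.0, 14.2, 11.7 and 13.6 FPKM in NIKhKO. Its log2 fold change was 0.19 (SE 0.10; adjusted p = 0.57), and NIKflox 4 was the highest library of all. Gnptab, which encodes 2 of the subunits of the enzyme that makes the tag, read 1.16, 1.36, 1.35, 1.68 and 1.401 FPKM in NIKflox and 1.81, 1.48, 1.33, 1.91 and 1.36 FPKM in NIKhKO (log2 fold change 0.25, SE 0.13; adjusted p = 0.59). Ap3m1, the medium subunit of the adaptor AP-3, read 10.7, 10.7, 12.02, 10.1 and 9.81 FPKM in NIKflox and 9.41, 10.9, 13.3, 14.4 and 12.7 FPKM in NIKhKO, with the lowest library in the NIKhKO group (log2 fold change 0.25, SE 0.13; adjusted p = 0.56). Clta, a clathrin light chain and the highest of the role, read 42.7 ± 6.32 and 40.4 ± 10.2 FPKM (SD, n = 5 each). For Ctsb, Ap1s1, Abca2 and Arsg, NIKhKO 4 was the NIKhKO library nearest to the NIKflox mean. For Dnase2a, Cd63 and Ap3m1 it was NIKhKO 2, and for M6pr and Gnptab NIKhKO 5. Without NIKhKO 4 no lysosome gene was called either. edgeR then gave Abca2 a log2 fold change of −0.67 (adjusted p = 0.084). In the same test Ctsb stood at 0.39 (adjusted p = 0.11) and Arsg at −0.63 (adjusted p = 0.11). Leaving out the library nearest to the other group enlarges such differences by construction. Over the 19 alternatives, each with its own test, the adjusted p ran from 0.041 to 0.49 for Abca2. It ran from 0.0097 to 0.51 for Ctsb and from 0.071 to 0.52 for Arsg.

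**Figure D3:**
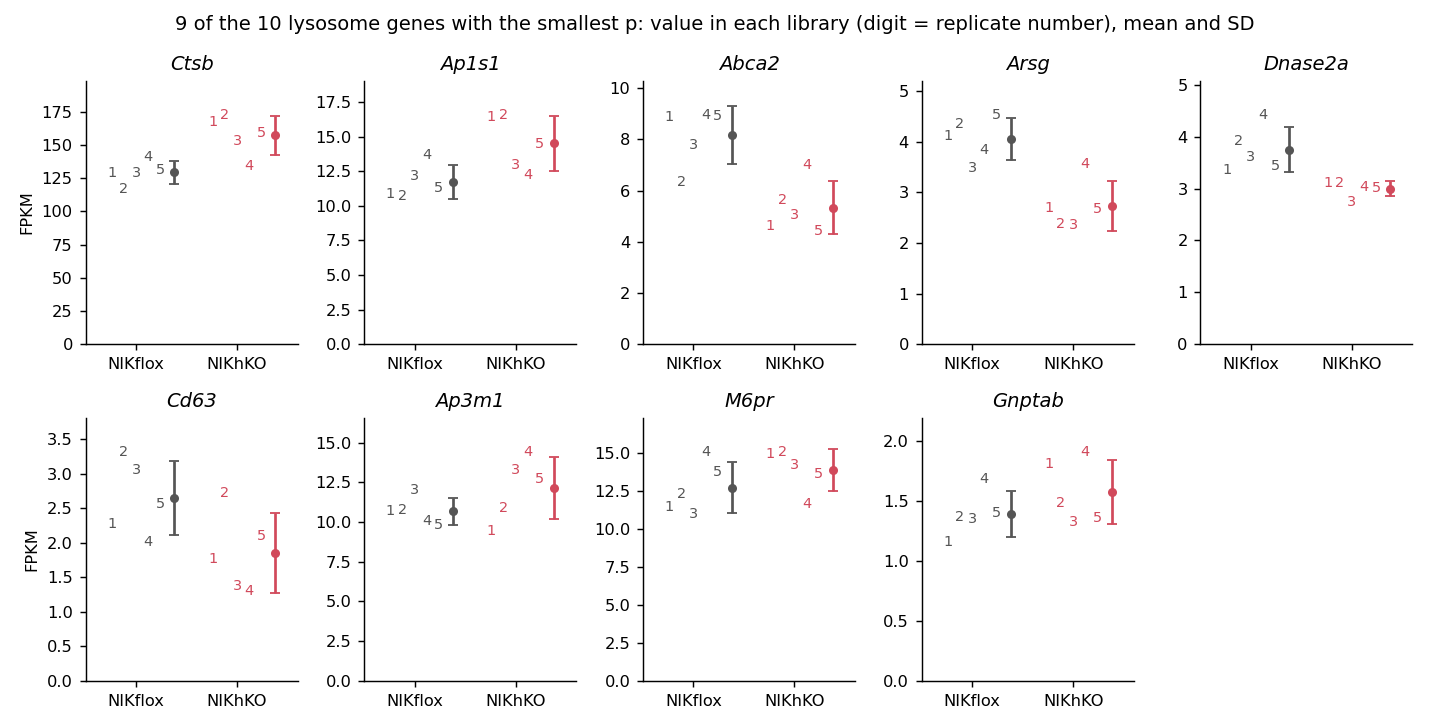
FPKM in each library of 9 of the 10 lysosome genes with the smallest p, with a digit for the replicate number (grey NIKflox, red NIKhKO), and the mean with its SD beside each group (n = 5). Only for Dnase2a do the groups not overlap, and NIKhKO 4 stands nearest to the NIKflox libraries for Ctsb, Ap1s1, Abca2 and Arsg.

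Summed over each role, the ranges of the genotypes overlapped in all 5 roles. The lysosome genes together took 0.830 ± 0.0566% of the counts of the NIKflox libraries and 0.819 ± 0.0240% of those of the NIKhKO libraries (SD, n = 5 each), with the highest share, 0.921%, in NIKflox 4 and the lowest, 0.783%, in NIKflox 1. Summed FPKM was 625 ± 81.0 and 637 ± 61.9 for the proteases, 222 ± 23.2 and 215 ± 13.3 for the glycosidases and sulfatases, 427 ± 32.0 and 402 ± 6.005 for lipid, nucleic acid and phosphate ester breakdown, 536 ± 19.9 and 518 ± 36.6 for the membrane proteins, and 215 ± 23.7 and 214 ± 17.3 for delivery (NIKflox first, SD, n = 5 each). Protease sums reached 744 FPKM in NIKflox 4 and 725 FPKM in NIKhKO 1, and lay lowest in NIKflox 2 at 551 FPKM. NIKflox 4 was also the highest library of the glycosidase, breakdown and delivery roles. The membrane proteins did not follow it: their sum was highest in NIKhKO 3, at 560 FPKM, and lowest in NIKhKO 2, at 483 FPKM.

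**Figure D4:**
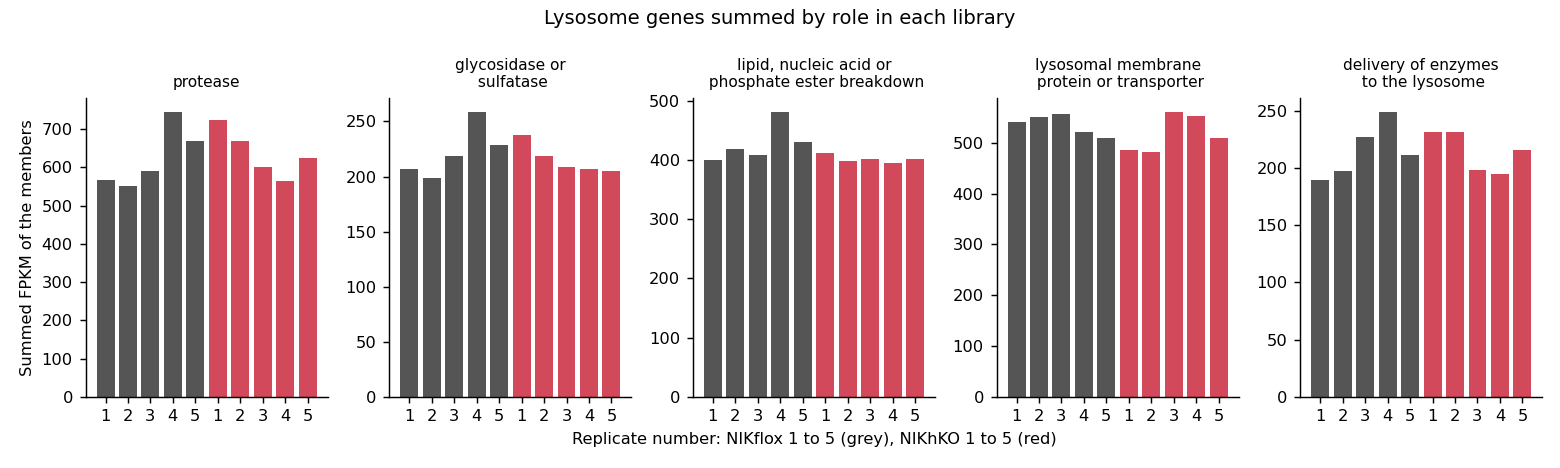
Summed FPKM of the lysosome genes of each role in each of the 10 libraries (bars from 0; grey NIKflox 1 to 5, red NIKhKO 1 to 5). NIKflox 4 is highest in 4 of the 5 roles, and the membrane proteins are highest in NIKhKO 3.

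Some lysosome genes are known chiefly from macrophages and related cells, and 3 of these were looked at beside macrophage markers, after their values had been seen. Laptm5 encodes a lysosomal protein of blood and immune cells. It read 3.86, 4.94, 3.38, 4.39 and 3.87 FPKM in NIKflox and 5.18, 4.60, 6.91, 3.64 and 4.17 FPKM in NIKhKO. Its edgeR adjusted p was 0.60. Slc11a1, a metal transporter of phagosomes, read 1.78 to 2.88 FPKM in NIKflox and 1.77 to 3.35 FPKM in NIKhKO. Ctss, the cathepsin that trims the invariant chain of class II molecules, read 19.1 to 28.0 and 19.4 to 31.1 FPKM. All 3 were highest in NIKhKO 3. Other lysosome genes were not: Ctsk was lowest there, at 0.116 FPKM. Acp5 was highest in NIKhKO 5, at 56.4 FPKM, but read nearly the same in NIKhKO 3, at 55.6 FPKM. Ctsc was highest in NIKflox 1, at 27.2 FPKM, and Lgmn in NIKflox 2, at 28.4 FPKM. The 15 Kupffer cell and macrophage markers summed to 282 FPKM in NIKhKO 3 and to 284 FPKM in NIKflox 4. Their ranges were 168 to 284 FPKM in NIKflox and 188 to 282 FPKM in NIKhKO. Of the 14 tested, 12 had a log2 fold change above 0 (median 0.15) and 0 were called. The list of 12 markers of monocytes and recruited macrophages went the other way: of 5 tested, 1 had a log2 fold change above 0 (median −0.48) and 0 were called. Its sums were 37.96 to 68.3 FPKM in the NIKflox libraries and 25.8 to 39.3 FPKM in the NIKhKO libraries, lowest in NIKhKO 3. The part of macrophages in the levels of Laptm5, Slc11a1 and Ctss was not tested.

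Genes that acidify, signal from or deliver cargo to the lysosome were also read. Of 19 tested genes of the vacuolar proton pump, 0 were called, 2 had an unadjusted p below 0.05 (10% of all genes tested did), 10 were positive and the median log2 fold change was 0.02. Atp6v0d2, a pump subunit of macrophages and osteoclasts, read 2.77, 2.35, 4.26, 1.23 and 3.46 FPKM in NIKflox and 5.37, 3.09, 6.68, 3.83 and 6.79 FPKM in NIKhKO. NIKhKO 1, 3 and 5 lay above all NIKflox libraries, with a log2 fold change of 0.94 (SE 0.33; adjusted p = 0.37). The accessory subunit Atp6ap2 read 12.8 ± 1.36 and 10.6 ± 0.892 FPKM, and Atp6v0a2 4.44 ± 0.785 and 3.77 ± 0.311 FPKM (SD, n = 5 each).

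Of 31 tested genes of the TFEB family and mTORC1 at the lysosome, 0 were called, 2 had an unadjusted p below 0.05, against the same 10% of all genes, 18 were positive and the median was 0.02. Lamtor2, a subunit of the Ragulator scaffold that holds mTORC1 to the lysosome, read 44.3, 43.7, 43.3, 47.8 and 45.9 FPKM in NIKflox and 53.2, 52.3, 46.2, 49.6 and 51.5 FPKM in NIKhKO. NIKhKO 3 alone lay below NIKflox 4, and the log2 fold change was 0.23 (SE 0.07; adjusted p = 0.29), with a DESeq2 call at an adjusted p of 0.035. Bloc1s1 (28.9 ± 2.99 and 34.7 ± 6.43 FPKM) and Lamtor3 (1.80 ± 0.292 and 2.10 ± 0.251 FPKM; SD, n = 5 each) followed. Tfe3, a relative of TFEB, read 2.73 to 3.23 FPKM in NIKflox and 2.37 to 2.67 FPKM in NIKhKO (log2 fold change −0.16; adjusted p = 0.58). It was named after its values were seen; 1 of the 31 genes without overlap stands beside 2.20% of all genes. Tfeb itself read 1.43 ± 0.515 and 1.36 ± 0.331 FPKM.

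Of 49 autophagy genes, all of them tested, 0 were called, 1 had an unadjusted p below 0.05, again against 10% of all genes, 28 were positive and the median was 0.02. Epg5, which tethers autophagosomes to lysosomes, read 1.23 ± 0.266 and 1.51 ± 0.187 FPKM (edgeR adjusted p = 0.44). Atg4a, a protease that processes the LC3 family, read 3.18 ± 0.389 and 3.57 ± 0.297 FPKM, and Atg10, an enzyme of the ATG conjugation system, 2.09 ± 0.539 and 2.65 ± 0.206 FPKM (SD, n = 5 each).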

How the data were processed

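Poly(A) RNA libraries of 10 mouse livers were analysed from 1 deposited table. Per the submitters' processing notes cutadapt 1.9, HISAT2 2.0.4, StringTie 1.3.4d and edgeR were used, with no role or order given. Those notes name hg38, although the gene identifiers are mouse. In GENCODE M21 (GRCm38) 86 of the 99 genes have the same coordinates, and coordinates are printed as the table gives them. Of the genes whose start and end are printed, Dnase2a alone is not among those 86. The FPKM columns are the authors' values. The deposited estimated counts are whole numbers without normalization; low counts gather at multiples of 4, so a count may not be 1 read.

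Genes with a mean of at least 0.5 FPKM, and Map3k14, were fitted with edgeR 4.0.16 in R 4.3.3 (glmQLFit, glmQLFTest, TMM, two-sided, Benjamini-Hochberg over all genes; called below 0.05) after the code was tested on simulated counts. Each SE is the log2 fold change over the root of its F statistic, and 95% intervals use the t distribution with edgeR's total degrees of freedom. limma 3.58.1, DESeq2 1.42.0, other scalings, filters, the replicate block and left-out libraries were alternatives. Members, lists and alternatives were chosen with earlier results of these data known. By rule, lysosome genes with values in every library are the 10 with the smallest p and those without overlap; per role the 3 most abundant and the 2 with the smallest p, and per further list the 3 with the smallest p, are also named; 1 gene of these is not reported here. Beyond the rule, Laptm5, Atp6v0d2 and Lamtor2 have every library's value, and Tfe3, Slc11a1, Ctss and the genes said to be chosen after their values were seen are named. Replicate numbers gave no sign of pairing the libraries.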

Additional observations from a re-analysis of the deposited data

Results flagged for a closer look

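Single libraries stood apart from their group for 6 of the 86 gene and group combinations looked at. The rule was a gap to the nearest library of more than 0.71 of the group's range. Chance alone flags about 1 in 20 such groups. The count cannot be judged by that rate, because some of the genes were chosen after their values were seen. Ap4b1, a subunit of the adaptor AP-4, read 0.129 FPKM in NIKhKO 4 against a group median of 3.59 FPKM. Slc17a5, the sialic acid exporter of the lysosome, read 1.89 FPKM in NIKhKO 5 against a group median of 5.51 FPKM. Both genes, chosen after their values were seen, have negative edgeR log2 fold changes, −0.41 and −0.31, in fits that include these libraries. Hexa read 45.2 FPKM in NIKflox 4 (group median 28.4 FPKM), and Gaa 26.6 FPKM in the same library (group median 19.1 FPKM). Arsg read 3.56 FPKM in NIKhKO 4, nearest to the NIKflox libraries, against a group median of 2.68 FPKM, and Dnase2a 2.74 FPKM in NIKhKO 3 against 3.03 FPKM.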

How the results depend on the processing

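No lysosome gene was called under any of the 19 alternatives except DESeq2, which called 3 (Ctsb, Ap1s1 and Abca2). DESeq2 called 207 genes in all, against 3 in the main test, limma called 0 with a pseudocount of 1 or 0.1, and leaving out NIKflox 2 and 4 left 1. Leaving out 1 library gave 0 to 24 calls over all genes, the 24 without NIKhKO 4. It gave 0 lysosome calls each time, a median lysosome log2 fold change of 0.01 to 0.04, 52 to 61 positive values and 1 to 5 genes without overlap, the 5 without NIKflox 2 or NIKhKO 4, where 3.82% and 4.57% of all genes had none. Without NIKflox 2 and 4 there were 8, against 5.91% of all genes. The 10 genes with the smallest p kept their direction throughout. Of 627 values of 33 named genes, 23 changed sign, all of 6 genes with main log2 fold changes of at most 0.11 in size. For Ctsd they were 0.00027 with DESeq2, 0.00033 with RLE size factors, 0.0052 with filterByExpr, 0.0014 with no filter and 0.055 without NIKflox 2 and 4, where Ctsz gave 0.0070 and Psap 0.011. Leaving out 1 library gave ranges of −0.043 to 0.071 for Ctsd, −0.12 to 0.11 for Ctsz, −0.14 to 0.057 for Clta, −0.15 to 0.0032 for Gaa and −0.0075 to 0.22 for Hexa. Causes of these shifts were not tested. With the replicate number as a block, edgeR called 2 genes, 0 of them lysosome genes. Deviations of same-numbered libraries correlated at −0.25 to 0.05. The numbers thus gave no sign of pairing, but so few pairs cannot exclude a weak shared effect. Low counts limit Ctsk and other rare genes.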

Other observations

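Lysosome genes varied between libraries by different amounts, and the examples below were chosen after their values were seen. The coefficient of variation over the 10 libraries had a median of 15.4% for the lysosome genes and 19.5% for all genes tested, and exceeded 25% for 13 of the 99. Glb1, the beta-galactosidase, was the steadiest at 5.28%, with 4.87 to 5.89 FPKM over all libraries. Ctsk, a cathepsin best known from osteoclasts, was the most variable at 52.9%, from 0.116 FPKM in NIKhKO 3 to 1.604 FPKM in NIKflox 2. Hyal1, a hyaluronidase, followed at 44.4%, with 3.18 to 11.4 FPKM in NIKhKO and 3.54 to 11.6 FPKM in NIKflox. Cltc, the clathrin heavy chain, read 5.31 and 6.09 FPKM in NIKflox 1 and 2 but 10.9 to 15.3 FPKM in the other 8 libraries.

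The table gives 65 of the 99 genes a further KEGG term. The 13 genes of glycosaminoglycan degradation had a median log2 fold change of −0.03 with 6 positive, the 9 of other glycan degradation a median of 0.04 with 7 positive, and the 7 of sphingolipid metabolism a median of −0.05 with 2 positive. All 4 lysosome genes that the table also places in antigen processing (Ctsb, Ctsl, Ctss and Lgmn) were positive, with a median of 0.10. That term was chosen after its values were seen. Ctss and Lgmn stood at 0.05 and 0.06, and 54.5% of all lysosome genes were positive. Of the 10 genes placed in apoptosis, which include Ctsb, Ctsl and Ctss, 5 were positive, with a median of 0.02. In each of these groups 0 genes were called by edgeR, over all genes tested.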
